A study of Homo sapiens with 20 samples.

Results

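The genes described here encode the glycosyltransferases of the Golgi that start mucin-type O-glycans, branch N-glycans, build galactose and N-acetylglucosamine chains and cap them with fucose or sialic acid. They were chosen by symbol alone, from the prefixes GALNT, C1GALT1, GCNT, MGAT, B3GALT, B4GALT, B3GNT, FUT with a digit, ST3GAL, ST6GAL and ST8SIA, without pseudogenes and antisense genes. The rule uses no measured value, but it was set with earlier results of these data known. Of the 18417 genes tested, 83 qualified. By role they were 19 GalNAc-transferases (GALNT), 6 genes of O-glycan cores and branches (C1GALT1, C1GALT1C1, GCNT), 9 N-glycan branching enzymes (MGAT), 20 chain builders (B3GALT, B4GALT, B3GNT), 9 fucosyltransferases (FUT) and 20 sialyltransferases (ST3GAL, ST6GAL, ST6GALNAC, ST8SIA). The cells were MDA-MB-231, an established line from a human triple-negative breast cancer. Cis is cisplatin at 36 µM, a platinum drug that crosslinks DNA, TM is ammonium tetrathiomolybdate at 10 µM, a copper chelator, and Cis/TM is both drugs together, each given for 12 h or 24 h. Control cells received vehicle. TM 12 h has 2 arrays and each of the other groups 3, 20 in all, lettered A to C. Control arrays carry no time in their labels, so the same 3 arrays stand against 12 h and 24 h and are shared by all comparisons with Control. The methods describe triplicate treatment in multi-well plates and triplicate arrays, and the labels do not tie an array to a well. The p-values measure the spread between such arrays within 1 cell line.

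Glycans grow in order along the Golgi. A GALNT enzyme places the first N-acetylgalactosamine on a serine or threonine of a protein, and C1GALT1, with its chaperone C1GALT1C1, adds galactose to it. On N-glycans, MGAT1 opens the way to complex forms, and MGAT4A, MGAT4B and MGAT5 add further antennae, which galactosyltransferases lengthen. FUT8 adds the core fucose, and sialyltransferases cap the ends. In carcinomas, truncated O-glycans, branched N-glycans and raised sialylation are long-known features of the cell surface, and they bear on binding to lectins and adhesion molecules.

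All values are log2 RMA values from Affymetrix Human Gene ST arrays, 1 per gene and array. A difference of 1 between values is a change of 2-fold. A gene was called, that is, it rose or fell, at an adjusted p under 0.05 together with a fold change over 1.5 in limma. The array medians lay between 5.71 and 5.94. The SD over genes was 2.01 to 2.03 on Control arrays and 2.03 to 2.18 on treated arrays, and its part in the results was tested by quantile normalization, which gives every array the same distribution, and by removing the trend of log2 fold change with level. Among treated arrays, Cis 12 h A and TM 24 h A had the smallest SD (2.03 and 2.04). VIM, CD44, CAV1, AXL, MSN, LGALS1 and ANXA1, genes of mesenchymal-like breast cancer cells, averaged 9.55 to 11.54 in Control. Of luminal or hormone receptor genes, ESR1, PGR and CDH1 lay at 4.15, 3.82 and 4.0, and ERBB2, GATA3 and FOXA1 at 5.79, 5.80 and 5.87. The leukocyte genes PTPRC, CD3E and ITGAM lay at 3.31, 3.80 and 4.62, whereas EPCAM and CD68 stood at 8.70 and 8.65.

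In cells treated with cisplatin, more of these genes fell than rose. After 12 h of cisplatin 5 of the 83 rose and 16 fell, where 14.8% of all genes tested rose and 10.8% fell. In either direction, 25.5% of all genes were called. After 24 h of cisplatin 4 rose and 10 fell (11.5% and 4.90% of all genes, 16.4% in all). With both drugs for 12 h, 6 rose and 11 fell (15.2% and 8.55% of all genes, 23.8% in all). With both drugs for 24 h limma called 0 rises and 7 falls (4.54% and 2.48% of all genes, 7.02% in all), the same counts as at an unadjusted p under 0.05 with that fold. TM alone gave 1 rise and 4 falls at 12 h (8.99% and 3.11% of all genes, 12.1% in all) and 3 of each at 24 h (5.16% and 2.55% of all genes, 7.72% in all). Falls thus made up 19.3% and 12.0% of the members after cisplatin for 12 h and 24 h, 4.82% and 3.61% after TM, and 13.3% and 8.43% after both. Over the 83 genes the median log2 fold change was −0.13 and −0.14 for cisplatin at the 2 times and −0.16 and −0.09 for Cis/TM, beside −0.01, −0.03, −0.05 and −0.02 over all genes. All arrays of Cis 12 h lay above all Control arrays for 14 members and below them for 28 (24.1% and 23.3% of all genes). For Cis 24 h these counts were 9 and 22 (24.9% and 20.8%), for TM 12 h 15 and 25 (25.6% and 24.4%), and for TM 24 h 9 and 13 (16.4% and 12.6%). Cis/TM gave 12 and 31 at 12 h (26.5% and 26.1%) and 7 and 23 at 24 h (16.9% and 14.5%). Bulk arrays cannot tell less RNA per cell from fewer cells that hold it.

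**Figure D1:**
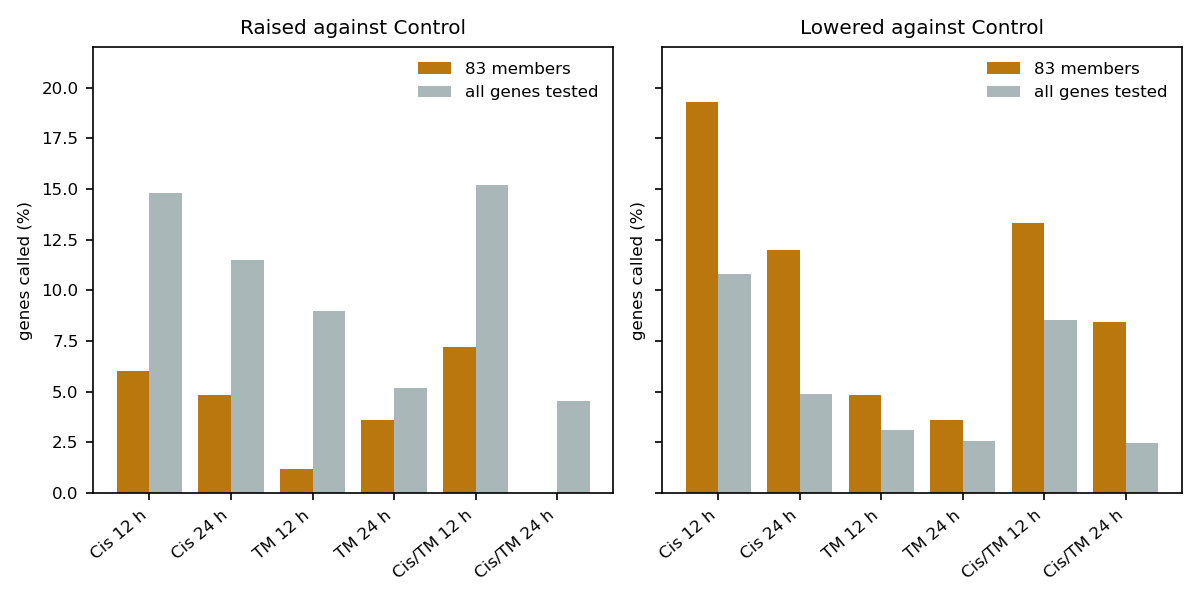
Share of genes called higher (left panel) or lower (right panel) than Control, in percent, for each treatment and time; brown bars are the 83 glycosyltransferase genes and grey bars all 18417 genes tested. Brown bars are shorter than grey in every raised pair and taller in every lowered pair, for example 19.3% against 10.8% lowered in Cis 12 h.

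The split between rises and falls moved with scaling. In Cis 24 h, 1 gene rose and 14 fell after each array was centred on its median, and 1 rose and 13 fell with the trend on level removed. In TM 24 h the counts were 2 and 4 after centring, 2 and 5 after quantile normalization and 1 and 4 with the trend removed. Centring gave 5 rises and 16 falls for Cis/TM 12 h, and quantile normalization 2 rises and 8 falls for Cis/TM 24 h. Without Cis 12 h A the 12 h count for cisplatin was 5 rises and 15 falls, and without TM 24 h A the 24 h count for TM was 2 and 3. For TM 12 h, leaving out Control A gave 3 rises and 5 falls, Control B 5 and 3, and Control C 2 and 7.

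In all, 26 of the 83 genes (31.3%) were called in at least 1 comparison with Control, close to the 34.3% of all genes tested. By direction, 8 were called only upwards (9.64%, beside 20.2% of all genes), 18 only downwards (21.7%, beside 13.4%) and 0 in both directions (0.662% of all genes). ST6GALNAC3 and ST8SIA4 fell in all 6 comparisons, as did 0.467% of all genes, and 0 members rose in all 6, beside 1.53% of all genes. Of the 37 members whose mean lay above the median gene (5.84), 21 were called (56.8%), and of the 46 below it, 5 (10.9%), beside 53.6% and 15% of all genes above and below that median. With cisplatin 4 members rose (4.82%) and 8 fell (9.64%) at both times, beside 8.82% and 3.77% of all genes. With TM 1 rose and 2 fell at both times (4.86% and 1.78% of all genes), and with Cis/TM 0 rose and 5 fell (3.44% and 1.93% of all genes).

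**Figure D2:**
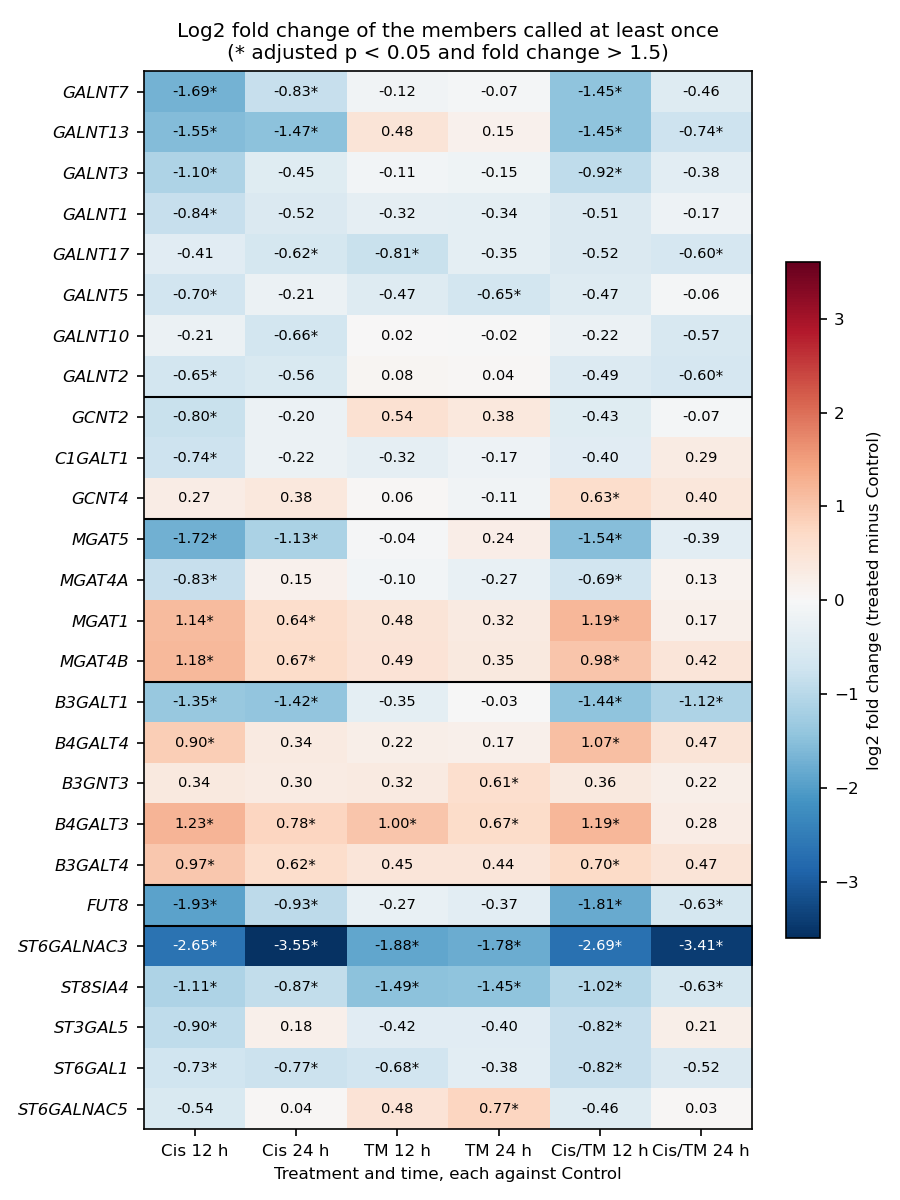
Log2 fold change against Control (treated minus Control; colour and number) of the 26 genes called at least once, in rows by role, from GalNAc-transferases at the top to sialyltransferases at the bottom, and in columns by treatment and time; an asterisk marks a call. ST6GALNAC3 is the darkest row, from −1.78 to −3.55, and the rows of GALNT7, MGAT5 and FUT8 are dark under cisplatin and pale under TM.

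Promoter windows are given for the sialyltransferases that fell in every comparison, ST6GALNAC3 and ST8SIA4, and for MGAT5 and GALNT7, which fell with cisplatin at 12 h and not with TM. Each runs from 250 bases before to 50 after the RefSeq gene start (GRCh38.p14, read on the gene's strand). Capitals mark GGGCGG (the GC box) and CCAAT, each on either strand, so also CCGCCC and ATTGG. Marked motifs do not overlap. The windows are chr1:76074496-76074795 (plus strand) for ST6GALNAC3, chr5:100903233-100903532 (minus strand) for ST8SIA4, chr2:134119685-134119984 (plus strand) for MGAT5 and chr4:173168561-173168860 (plus strand) for GALNT7.
ST6GALNAC3: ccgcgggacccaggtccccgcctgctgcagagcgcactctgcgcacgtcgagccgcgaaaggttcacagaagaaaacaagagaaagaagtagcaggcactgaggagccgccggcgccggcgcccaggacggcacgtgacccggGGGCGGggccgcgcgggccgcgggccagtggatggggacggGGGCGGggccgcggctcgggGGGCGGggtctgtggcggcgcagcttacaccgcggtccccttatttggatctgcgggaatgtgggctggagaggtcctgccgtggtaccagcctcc
ST8SIA4: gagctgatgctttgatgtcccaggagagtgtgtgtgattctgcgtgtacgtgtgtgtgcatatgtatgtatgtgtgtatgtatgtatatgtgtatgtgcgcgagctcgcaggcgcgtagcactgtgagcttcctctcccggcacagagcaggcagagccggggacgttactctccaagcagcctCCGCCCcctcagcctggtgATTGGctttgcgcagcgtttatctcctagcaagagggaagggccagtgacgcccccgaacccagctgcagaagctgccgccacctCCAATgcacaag
MGAT5: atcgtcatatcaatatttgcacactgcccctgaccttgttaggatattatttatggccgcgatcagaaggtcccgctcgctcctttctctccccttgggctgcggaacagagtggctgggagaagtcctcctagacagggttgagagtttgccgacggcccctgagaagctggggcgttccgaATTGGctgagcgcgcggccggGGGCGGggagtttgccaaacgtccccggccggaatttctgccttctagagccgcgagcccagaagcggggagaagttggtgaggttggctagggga
GALNT7: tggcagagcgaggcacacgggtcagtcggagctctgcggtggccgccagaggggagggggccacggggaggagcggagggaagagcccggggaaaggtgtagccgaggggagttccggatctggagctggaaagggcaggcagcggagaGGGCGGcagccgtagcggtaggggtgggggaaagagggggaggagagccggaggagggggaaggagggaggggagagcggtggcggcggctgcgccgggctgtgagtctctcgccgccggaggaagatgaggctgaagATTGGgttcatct
The ST6GALNAC3 window holds 3 GC boxes, 0 CCAAT boxes and 1 E-box CACGTG, with a GC content of 72.0%. The ST8SIA4 window holds 1 and 2 at 57.3% GC, and those of MGAT5 and GALNT7 hold 1 of each at 59.3% and 69.7% GC. A TATAAA motif is in 0 of the 4. RefSeq windows were found for 64 of the 83 genes. GGGCGG was in 64.1% of them and in 44.6% of all 27305 promoters, CCAAT in 32.8% and 35.7%, TATAAA in 3.12% and 12.0%, the E-box CACGTG in 10.9% and 7.43%, and the AP-1 motif TGANTCA in 9.38% and 7.76%. Their median GC content was 66.3%, beside 58.3% for all promoters. The sets differ in kind, since the 83 genes are protein-coding and all promoters were taken without a filter on gene type. The motif matches describe letters in a window and were set against no measurement.

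The GalNAc-transferases, which start mucin-type O-glycans, fell or were not called, and 0 of 19 rose in any comparison with Control. Those that fell numbered 6 and 4 with cisplatin for 12 h and 24 h, 1 at each time with TM, and 3 at each time with both drugs. Among all genes, 10.8% and 4.90% fell with cisplatin at these times, 3.11% and 2.55% with TM, and 8.55% and 2.48% with both drugs. The deepest fall was that of GALNT7, an enzyme known to prefer peptides that already carry a GalNAc. It read 7.49, 8.11 and 8.06 with cisplatin for 12 h and 8.85, 8.65 and 8.75 for 24 h, against 9.60, 9.47 and 9.67 in Control. It read 8.09, 8.24 and 8.06 with both drugs for 12 h and 9.14, 9.07 and 9.15 for 24 h. No array of these 4 groups reached the lowest Control array. The log2 fold change was −1.69 ± 0.13 (SE, a 3.22-fold fall, adjusted p = 3.54e-09) after 12 h of cisplatin, −0.83 after 24 h and −1.45 with both drugs for 12 h. At 24 h with both it was −0.46, under the fold threshold (adjusted p = 0.0173). TM arrays, at 9.40 to 9.62, overlapped with Control, and the fold changes of −0.12 and −0.07 were not called.

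GALNT13, an enzyme known mainly from neural tissue, fell with cisplatin at both times. It read 4.82, 5.26 and 5.48 with cisplatin for 12 h and 5.38, 5.34 and 5.08 for 24 h, against 6.32, 6.96 and 6.92 in Control. Its fold changes were −1.55 (adjusted p = 3.91e-07) and −1.47 (adjusted p = 2.50e-06), and in Cis/TM they were −1.45 at 12 h and −0.74 at 24 h. TM arrays stood at 7.18 and 7.24 after 12 h, above every Control array, with a fold change of 0.48 that was not called. GALNT3, which in humans glycosylates the phosphate hormone FGF23, read 6.27, 6.82 and 6.55 in Cis 12 h, against 7.72, 7.41 and 7.80 in Control. It fell by 1.10 on the log2 scale in Cis 12 h and by 0.92 in Cis/TM 12 h, and was not called in Cis 24 h (−0.45) or Cis/TM 24 h (−0.38).

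GALNT1, a broadly expressed member, read 8.31, 8.79 and 8.65 in Cis 12 h, against 9.36, 9.33 and 9.59 in Control. Its fold change there was −0.84 (adjusted p = 6.84e-06). In Cis 24 h (−0.52) and Cis/TM 12 h (−0.51) its arrays also lay below Control, under the fold threshold. Those of Cis/TM 24 h (9.26, 9.22 and 9.28) and of TM lay below Control too, without a call. TM arrays of GALNT1 read 9.16 and 9.06 at 12 h and 8.90, 9.24 and 9.11 at 24 h. GALNT17 had low values, 4.92 and 4.93 in TM 12 h against 5.83, 5.61 and 5.75 in Control, and fell there by 0.81 on the log2 scale. A second transcript cluster of GALNT17 gave −0.58 there, −0.68 in Cis 24 h and −0.42 in Cis/TM 24 h. GALNT5 read 7.38, 7.48 and 7.63 in TM 24 h, against 8.02, 8.40 and 8.02 in Control (−0.65). GALNT2 fell by 0.65 in Cis 12 h and by 0.60 in Cis/TM 24 h, and GALNT10 by 0.66 in Cis 24 h.

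Several of these smaller GALNT calls rested on single arrays. GALNT2 in Cis 12 h came to −0.53 without Cis 12 h C and −0.58 without Control B, and in Cis/TM 24 h to −0.44, −0.57 and −0.53 without Cis/TM 24 h C, Control A and Control B. GALNT5 came to −0.47 in Cis 12 h without Cis 12 h A, to −0.58 there without Control B (−0.70 with all arrays), and to −0.53 in TM 24 h without Control B. GALNT10 in Cis 24 h came to −0.53 without Cis 24 h C. GALNT17 came to −0.49 in Cis 24 h without Cis 24 h A and −0.57 without Control A, beside −0.62 with all arrays. In Cis/TM 24 h it came to −0.54 without Cis/TM 24 h A and −0.55 without Control A, beside −0.60. Each of these values is under the fold threshold. The 11 GALNT genes that were not called ranged from −0.54 to 0.36, and GALNT11, at 7.87 in Control, stayed within −0.13 to 0.07.

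Among the genes of O-glycan cores and branches, 2 of 6 fell in Cis 12 h, and 1 rose in Cis/TM 12 h. Of all genes 10.8% fell and 15.2% rose in these comparisons, so that 1 rise among 6 genes is near that share. GCNT2, which makes the I branches of poly-N-acetyllactosamine, read 5.44, 6.17 and 5.72 in Cis 12 h, against 6.64, 6.59 and 6.50 in Control. It fell by 0.80 on the log2 scale (adjusted p = 0.000194), and in TM 12 h it stood at 7.13 and 7.11, above Control, with an uncalled 0.54. C1GALT1, the core 1 synthase, read 7.53, 7.72 and 8.19 in Cis 12 h, against 8.53, 8.10 and 9.02 in Control. These groups overlap. The fold change of −0.74 was called (adjusted p = 0.0152) but came to −0.50 (adjusted p = 0.104) without Control C and to an adjusted p of 0.0774 without Cis 12 h A. GCNT4, a core 2 branching enzyme, was low throughout, at 4.67, 4.38 and 4.42 in Cis/TM 12 h against 3.85, 3.56 and 4.18 in Control. Its rise of 0.63 came under the fold threshold without Cis/TM 12 h A (0.54) or Control B (0.48) and after median centring (0.52). C1GALT1C1, the chaperone without which C1GALT1 misfolds, was called in 0 of the 6 comparisons. Its values were 5.97, 6.16 and 6.16 in Cis/TM 24 h, against 6.19, 5.73 and 6.01 in Control, and in Cis 12 h its fold change was −0.50 (adjusted p = 0.00209).

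N-glycan branching genes moved in both directions under cisplatin. MGAT1, which starts the conversion to hybrid and complex N-glycans, and MGAT4B rose, and MGAT5, whose branch carries ligands of galectins, and MGAT4A fell. MGAT5 read 4.83, 5.20 and 5.46 with cisplatin for 12 h and 5.88, 5.64 and 5.74 for 24 h, against 6.74, 6.97 and 6.93 in Control. Its log2 fold changes were −1.72 ± 0.15 (SE, 3.29-fold, adjusted p = 2.37e-08) and −1.13 for cisplatin at 12 h and 24 h, and −1.54 for Cis/TM 12 h. In Cis/TM 24 h it read 6.58, 6.28 and 6.64, below every Control array, with an uncalled −0.39. All TM arrays, from 6.75 to 7.36, lay above the lowest Control array.

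MGAT1 read 6.85, 7.01 and 6.47 with cisplatin for 12 h and 6.27, 6.37 and 6.17 for 24 h, against 5.31, 5.82 and 5.78 in Control. It rose by 1.14 ± 0.14 (SE, 2.21-fold, adjusted p = 1.19e-06) after 12 h of cisplatin, by 0.64 after 24 h and by 1.19 with both drugs for 12 h. In Cis/TM 24 h, at 5.77, 5.93 and 5.72, its arrays overlapped with Control. All TM arrays of MGAT1 lay above Control without a call, at 6.09 and 6.13 after 12 h and 5.87, 5.93 and 6.05 after 24 h. MGAT4B, at 7.54, 7.69 and 7.53 in Cis 12 h against 6.42, 6.81 and 6.00 in Control, rose by 1.18 there and by 0.67 in Cis 24 h and 0.98 in Cis/TM 12 h. In TM 12 h, at 6.89 and 6.91, MGAT4B also lay above Control and was not called. Its relative MGAT4A, which adds the same branch, went the other way. MGAT4A read 5.22, 5.46 and 5.24 in Cis 12 h, against 5.89, 6.04 and 6.47 in Control, and fell by 0.83 (adjusted p = 0.00327). In Cis 24 h, at 6.46, 6.09 and 6.27, it was not called.

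The 24 h rises of MGAT1 and MGAT4B depended on scaling and on single Control arrays. MGAT1 in Cis 24 h came to 0.55 after median centring, 0.52 after quantile normalization, 0.46 with the trend on level removed, and 0.47 without Control A. MGAT4B in Cis 24 h came to 0.58, 0.43 and 0.38 under the same changes of scale, and to 0.47 without Control C. MGAT4A in Cis/TM 12 h, −0.69 with all arrays, came to −0.50 without Cis/TM 12 h B and −0.53 without Control C. All of these lie below the fold threshold. The other 5 MGAT genes were not called, among them MGAT2, which acts after MGAT1, with fold changes from −0.16 to 0.38.

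Of the 20 chain builders, 3 rose and 1 fell in both Cis 12 h and Cis/TM 12 h. In these comparisons 14.8% and 15.2% of all genes rose and 10.8% and 8.55% fell. B4GALT3, a galactosyltransferase that makes N-acetyllactosamine, rose with either drug. Its values were 6.95, 7.09 and 6.92 with cisplatin for 12 h and 6.68, 6.54 and 6.37 for 24 h. TM arrays read 6.76 and 6.75 at 12 h and 6.35, 6.28 and 6.65 at 24 h, against 5.73, 5.66 and 5.88 in Control. Every one of these arrays lay above Control. Cisplatin raised it by 1.23 at 12 h (2.35-fold, adjusted p = 2.01e-07) and 0.78 at 24 h, and TM by 1.0 and 0.67. In Cis/TM it rose by 1.19 at 12 h, while at 24 h its arrays read 6.15, 6.06 and 5.89 and the change of 0.28 was not called. The rise in TM 24 h came to 0.56 without TM 24 h C, and with the trend on level removed the values in Cis 24 h and TM 24 h were 0.54 and 0.53.

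B4GALT4, a second galactosyltransferase, rose by 0.90 in Cis 12 h and by 1.07 in Cis/TM 12 h. It read 6.60, 7.13 and 6.93 with cisplatin and 7.22, 6.74 and 7.23 with both drugs at 12 h, against 5.87, 6.15 and 5.96 in Control. B3GALT4, which makes the ganglioside GM1, read 5.95, 5.51 and 5.46 in Cis 12 h, against 4.90, 4.57 and 4.53 in Control, a rise of 0.97. Its rise of 0.62 in Cis 24 h came to 0.53 after median centring, and to 0.55, 0.58 and 0.55 without Cis 24 h B, Control B and Control C. B3GALT1, a type 1 chain galactosyltransferase, fell in every comparison with cisplatin. It read 3.75, 3.72 and 3.62 with cisplatin for 12 h and 3.57, 3.64 and 3.68 for 24 h, against 5.05, 4.77 and 5.32 in Control (−1.35 and −1.42). Its TM 24 h arrays spread widely, at 4.32, 4.73 and 6.01, with a fold change of −0.03. Its Cis/TM 24 h value of −1.12 had an adjusted p of 0.0588 without Cis/TM 24 h A (log2 fold change −1.0). B3GNT3, which extends core 1, read 6.59, 6.19 and 6.23 in TM 24 h, against 5.56, 5.66 and 5.96 in Control. Its rise of 0.61 was just over the threshold and came to 0.49 without TM 24 h A, 0.53 without Control A and 0.58 without Control B, and to between 0.51 and 0.57 under the 3 changes of scale. Among the 15 chain builders that were not called were B4GALT5 and B4GALT1, galactosyltransferases at 9.24 and 8.72 in Control, with fold changes from −0.53 to 0.05 and from 0.18 to 0.56.

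Of 9 fucosyltransferases, FUT8 alone was called against Control, and the other 8, all with Control means of 6.10 or less, ranged from −0.55 to 0.49. FUT8 is the enzyme of core fucosylation, a step with no known substitute in mammals. It read 6.25, 6.70 and 6.61 with cisplatin for 12 h and 7.50, 7.52 and 7.53 for 24 h, against 8.39, 8.48 and 8.48 in Control. In Cis/TM it read 6.73, 6.38 and 6.82 at 12 h and 7.91, 7.84 and 7.69 at 24 h. No treated array, those of TM included, reached the lowest Control array. FUT8 fell by 1.93 ± 0.12 (SE, 3.80-fold, adjusted p = 3.35e-10) after 12 h of cisplatin and decreased by 0.93 after 24 h. Its values for Cis/TM were −1.81 at 12 h and −0.63 at 24 h. The last came to −0.57 without Cis/TM 24 h C. With TM the changes were −0.27 and −0.37 and were not called.

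Of the 20 sialyltransferases, 4 fell in Cis 12 h and 3 in TM 12 h, where 10.8% and 3.11% of all genes fell, and 0 rose. In TM 24 h 1 rose and 2 fell (5.16% and 2.55% of all genes). The gene with the largest fold change against Control among the 83 was a sialyltransferase. ST6GALNAC3, which adds sialic acid to N-acetylgalactosamine of O-glycans and gangliosides, read 5.63, 6.23 and 5.88 with cisplatin for 12 h and 4.83, 5.0 and 5.20 for 24 h, against 8.46, 8.65 and 8.58 in Control. In TM 12 h it read 6.70 and 6.66, and in TM 24 h 6.56, 7.04 and 6.75. In Cis/TM it read 6.09, 5.60 and 5.93 at 12 h and 5.29, 5.22 and 4.96 at 24 h. All 17 treated arrays lay below Control by more than 1 on the log2 scale, and TM arrays lay between those of cisplatin and Control. The log2 fold change for cisplatin was −2.65 ± 0.16 at 12 h (SE, 6.28-fold, adjusted p = 2.25e-10) and −3.55 ± 0.16 at 24 h (11.7-fold, adjusted p = 1.14e-11). For TM it was −1.88 ± 0.18 (3.69-fold) and −1.78 ± 0.16 (3.44-fold), and for Cis/TM −2.69 and −3.41. A second transcript cluster of the gene gave −2.31 and −2.89 for cisplatin at 12 h and 24 h, −1.81 and −1.72 for TM, and −2.34 and −2.81 for Cis/TM.

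ST8SIA4, a polysialyltransferase, also fell in all 6 comparisons. It read 5.85 and 5.62 in TM 12 h and 5.50, 5.85 and 5.99 in TM 24 h, against 7.26, 6.97 and 7.45 in Control. In Cis 12 h it read 5.82, 6.34 and 6.19 and in Cis 24 h 6.50, 6.20 and 6.36. The log2 fold changes were −1.49 (2.81-fold, adjusted p = 1.59e-05) and −1.45 for TM at 12 h and 24 h, and −1.11 and −0.87 for cisplatin. Set directly against TM, the cisplatin arrays differed by 0.38 at 12 h (adjusted p = 0.150) and by 0.58 at 24 h (adjusted p = 0.0187, under the fold threshold). For Cis/TM the values were −1.02 at 12 h and −0.63 at 24 h, and the last had an adjusted p of 0.0654 without Cis/TM 24 h B (−0.50) and 0.0517 without Control C (−0.52).

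ST3GAL5, which makes the ganglioside GM3, was low at 12 h and not at 24 h in the groups with cisplatin. With TM alone it read 7.75 and 7.54 at 12 h and 7.50, 7.61 and 7.87 at 24 h, and was not called. It read 6.98, 7.34 and 7.16 in Cis 12 h, against 8.16, 7.79 and 8.23 in Control, and fell by 0.90 (adjusted p = 4.57e-05). In Cis/TM 12 h, at 7.43, 7.07 and 7.23, it fell by 0.82. After 24 h of cisplatin it read 8.38, 8.18 and 8.14, a change of 0.18 that was not called. ST6GAL1, which caps N-glycans, had low values, 4.06, 4.11 and 4.16 in Cis 12 h against 4.62, 5.32 and 4.58 in Control. Its fold changes were −0.73 and −0.77 for cisplatin, −0.68 for TM 12 h and −0.82 for Cis/TM 12 h. Control B was its highest array, and without it the 4 values came to −0.48, −0.53, −0.45 and −0.58, none past the fold threshold. The value in TM 12 h also had an adjusted p of 0.0772 without TM 12 h B (−0.63).

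ST6GALNAC5, which makes the ganglioside GD1alpha and is known from work on brain metastasis of breast cancer cells, rose in TM 24 h. It read 7.72, 7.60 and 7.89 there, against 7.19, 6.97 and 6.76 in Control, a rise of 0.77 (1.70-fold, adjusted p = 0.00379). In Cis 12 h, at 6.92, 6.10 and 6.27, its change of −0.54 was not called. The 15 sialyltransferases that were not called had Control means from 3.64 to 6.28 and ranged from −0.58 to 0.55.

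**Figure D3:**
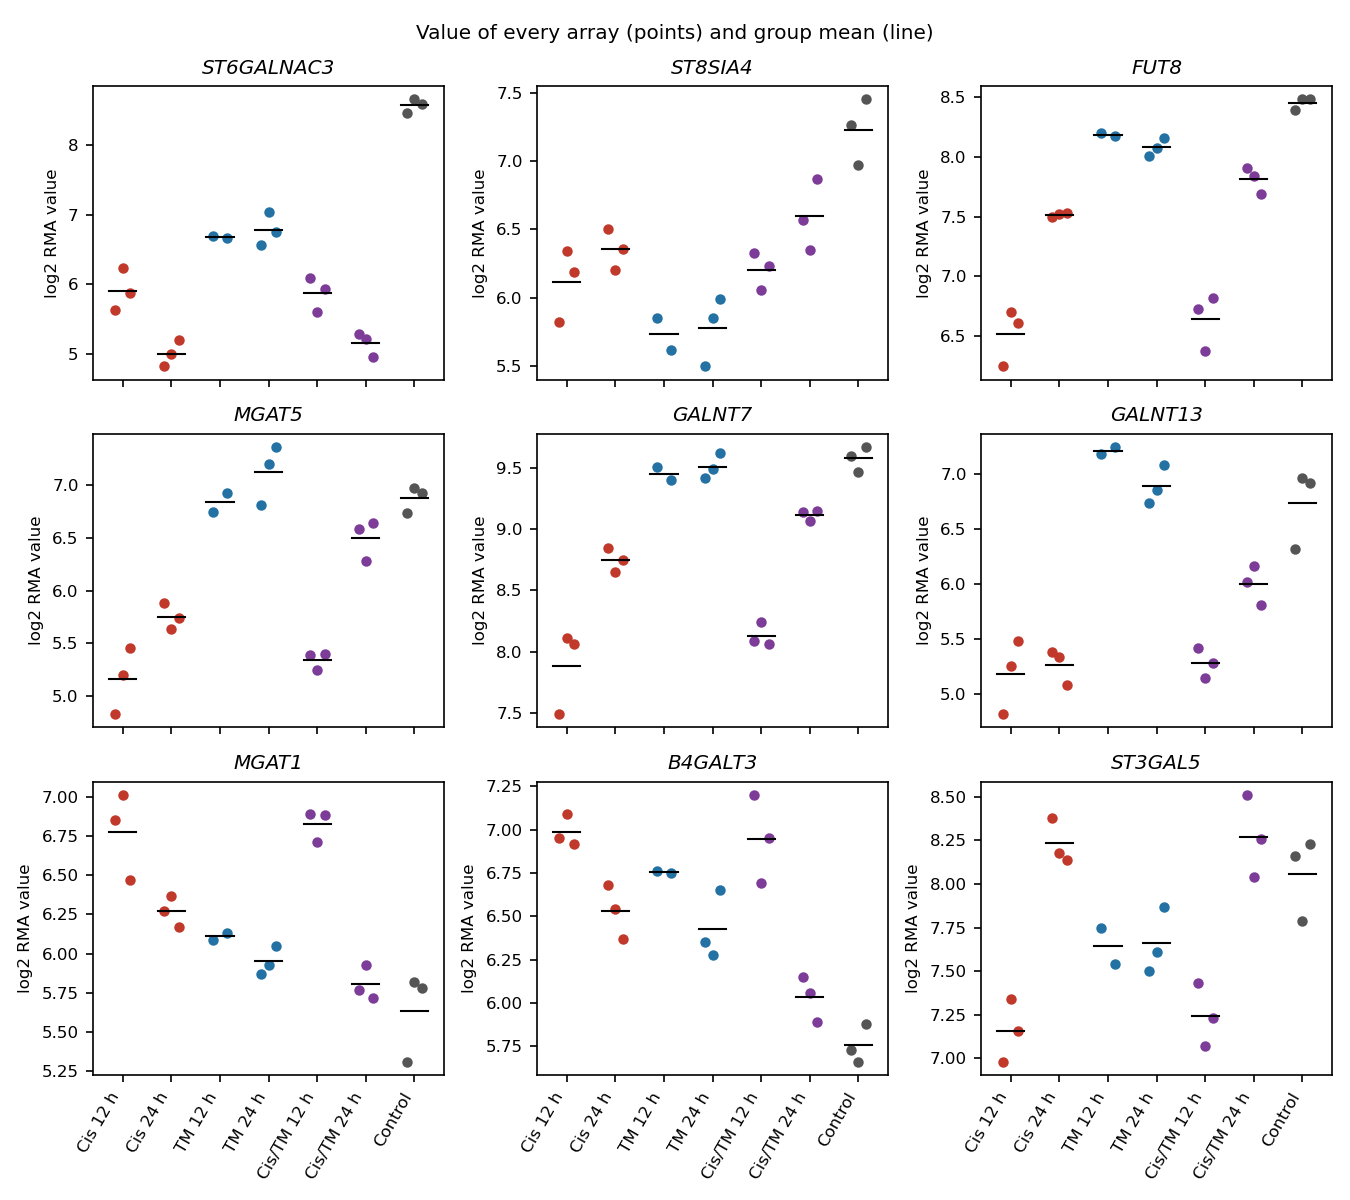
Log2 RMA value (vertical axis, scaled per gene) of every array for 9 of the genes, with groups along the horizontal axis from Cis 12 h to Control; points are arrays and lines are group means. ST6GALNAC3 lies below Control in all 17 treated arrays, GALNT7, MGAT5 and FUT8 are lowest in Cis 12 h and Cis/TM 12 h, and MGAT1 and B4GALT3 lie above Control at 12 h.

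Cisplatin and TM were also set against each other. In Cis 12 h 4 of the 83 genes were higher and 12 lower than in TM 12 h (6.90% and 10.3% of all genes tested, 17.2% in all), and 10 of the 16 calls held when any single array was left out. The difference was −2.03 ± 0.19 for GALNT13 (SE, 4.07-fold lower in Cis, adjusted p = 1.30e-07), −1.68 for MGAT5, −1.66 for FUT8, −1.56 for GALNT7, −1.34 for GCNT2, −1.02 for ST6GALNAC5 and −0.99 for GALNT3. ST6GALNAC3, GALNT2 and, in the other direction, MGAT4B also held, with −0.77, −0.73 and 0.69. MGAT4B came to 0.58, under the threshold, with the trend on level removed. After 24 h, 1 gene was higher and 9 lower with cisplatin than with TM (5.32% and 3.23% of all genes, 8.55% in all). ST6GALNAC3 (−1.77), GALNT13 (−1.62), B3GALT1 (−1.39), MGAT5 (−1.37), GALNT7 (−0.76) and ST6GALNAC5 (−0.73) held without any single array. The arrays did not overlap for 22 members higher and 21 lower in Cis 12 h (28.9% and 23% of all genes), and for 9 higher and 19 lower in Cis 24 h (20% and 14.7%). Median centring gave 2 higher and 15 lower in Cis 12 h against TM 12 h, and removing the trend on level gave 0 higher and 13 lower. Leaving out Cis 12 h A gave 4 and 9 at 12 h, and leaving out TM 24 h A gave 0 and 12 at 24 h.

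The calls between cisplatin and TM that did not hold were as follows. At 12 h, B3GALT1 (−1.0) had an adjusted p of 0.0578, 0.0560 and 0.0688 without Cis 12 h A, B and C, and 0.423 without TM 12 h B. B4GALT4 (0.68) came to 0.56 without Cis 12 h B and to adjusted p-values of 0.0933 and 0.102 without TM 12 h A and B. MGAT1 (0.66) came to 0.55 without Cis 12 h B, and ST3GAL6 (−0.62) to −0.49 without Cis 12 h A and −0.57 without TM 12 h B. MGAT4A (−0.73) had adjusted p-values of 0.0770, 0.0670 and 0.254 without Cis 12 h A, Cis 12 h C and TM 12 h B, and ST6GALNAC2 (0.71) came to 0.47 without TM 12 h B. At 24 h, B3GNT5 (0.60) came to 0.53 and 0.46 without Cis 24 h A and TM 24 h A, GALNT10 (−0.65) to −0.51 without Cis 24 h C, and GALNT2 (−0.60) to −0.58 without TM 24 h C. GALNT18 (−0.59) came to −0.53, −0.58 and −0.57 without Cis 24 h C, TM 24 h B and TM 24 h C.

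Adding TM to cisplatin changed few of these genes. In Cis/TM 12 h against Cis 12 h, limma called 0 of the 83 genes and 0 of all 18417 (0% of all genes). Arrays did not overlap for 4 members above and 5 below (9.43% and 5.73% of all genes). At an unadjusted p under 0.05, 6 members differed, none of them past the fold threshold. The differences ran from −0.36 to 0.37, and the widest 95% confidence bounds were −0.74 and 0.84, so that changes of up to that size are not excluded for single genes. In Cis/TM 24 h against Cis 24 h, GALNT13 and MGAT5 were higher and 0 genes were lower (0.456% and 1.05% of all genes, 1.5% in all). GALNT13 read 6.02, 6.16 and 5.81 in Cis/TM 24 h, against 5.38, 5.34 and 5.08 in Cis 24 h, and MGAT5 read 6.58, 6.28 and 6.64 in Cis/TM 24 h, against 5.88, 5.64 and 5.74 in Cis 24 h. The arrays of neither gene overlapped, as for 9 members above and 10 below in all (11.8% and 17.3% of all genes). The differences were 0.73 ± 0.17 (SE, adjusted p = 0.0238) and 0.74 ± 0.15 (SE, adjusted p = 0.0140). The GALNT13 call was lost without any 1 of the 6 arrays, with adjusted p-values from 0.0531 to 0.109. The MGAT5 call was lost without Cis 24 h A (0.0548), Cis 24 h B (0.0799) or Cis/TM 24 h C (0.0863).

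Adding cisplatin to TM changed more. In Cis/TM 12 h 3 genes were higher and 9 lower than in TM 12 h (6.61% and 6.98% of all genes, 13.6% in all), and in Cis/TM 24 h 5 were higher and 6 lower than in TM 24 h (3.53% and 2.75% of all genes, 6.28% in all). Without TM 24 h A the counts at 24 h were 2 and 8. Arrays did not overlap for 19 members above and 22 below at 12 h (28.1% and 23.5% of all genes) and for 9 and 23 at 24 h (14.3% and 15%). At 12 h GALNT13 (−1.93), FUT8 (−1.54), MGAT5 (−1.5), GALNT7 (−1.33), GCNT2 (−0.98), ST6GALNAC5 (−0.94), GALNT3 (−0.82) and ST6GALNAC3 (−0.81) were lower and B4GALT4 (0.85) and MGAT1 (0.72) higher, each also without any single array. B3GALT1 and B3GNT5 were called with all arrays (−1.08 and 0.68) and were lost without TM 12 h B, at adjusted p-values of 0.402 and 0.101. B3GALT1 was also lost without Cis/TM 12 h A (0.0531) and C (0.0629). At 24 h ST6GALNAC3 (−1.63), GALNT13 (−0.89) and ST6GALNAC5 (−0.74) were lower, and B3GNT5 (0.86) and ST8SIA4 (0.82) higher, without any single array. ST8SIA4 read 6.57, 6.35 and 6.87 in Cis/TM 24 h, against 5.50, 5.85 and 5.99 in TM 24 h, so that the gene stood higher with both drugs than with TM alone, and below Control in both. The other 6 of the 11 calls at 24 h did not hold when single arrays were left out. B3GALT1 (−1.10) had adjusted p-values of 0.0752, 0.0628 and 0.0901 without Cis/TM 24 h A, Cis/TM 24 h C and TM 24 h C. C1GALT1C1 (0.60) came to 0.57 without Cis/TM 24 h B or C and to 0.51 without TM 24 h A, and GALNT2 (−0.65) to −0.49 without Cis/TM 24 h C. GALNT5 (0.59) was lost without Cis/TM 24 h A or B or TM 24 h A or B, at adjusted p-values from 0.0556 to 0.0831. MGAT5 (−0.63) came to −0.52 without Cis/TM 24 h B and −0.51 without TM 24 h C, and ST3GAL5 (0.61) to 0.49 without Cis/TM 24 h A and 0.53 without TM 24 h A.

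How far both drugs together departed from the sum of their separate log2 changes was also tested. The departure was positive for 5 genes and negative for 1 at 12 h (3.43% and 6.87% of all genes tested, 10.3% in all), and positive for 8 and negative for 5 at 24 h (5.08% and 11.4% of all genes, 16.5% in all). At 12 h it was positive for 3 and negative for 1 without Cis 12 h A, and positive for 2 and negative for 1 without TM 12 h B, Cis/TM 12 h B or Control C. At 24 h the split was 9 and 3 after median centring, 10 and 3 after quantile normalization and 10 and 1 with the trend on level removed. It was largest for ST6GALNAC3, at 1.84 ± 0.24 (SE, adjusted p = 0.000128) at 12 h and 1.93 ± 0.22 (SE, adjusted p = 1.52e-05) at 24 h, and for ST8SIA4, at 1.58 ± 0.25 and 1.69 ± 0.23. Both genes fell with each drug, and Cis/TM arrays lay near those of cisplatin rather than at the sum of the changes. For ST6GALNAC3 that sum would lie below its lowest array (4.83 in Cis 24 h), toward low members such as GALNTL5 (3.17 in Control). Whether a lower limit of the array values adds to this departure was not tested. B4GALT3, which rose with each drug, gave −1.04 ± 0.20 and −1.17 ± 0.18. MGAT1 gave −0.78 at 24 h (−0.58, under the threshold, with the trend on level removed). These values held without any single array, as did those of B3GNT5 (0.83), C1GALT1C1 (0.91), FUT8 (0.67) and GALNT1 (0.69) at 24 h. B3GNT5, which makes the precursor of lacto-series glycolipids, read 8.40, 8.22 and 8.35 in Cis/TM 24 h, 8.20, 8.02 and 7.97 in Cis 24 h and 7.18, 7.67 and 7.54 in TM 24 h, against 7.66, 8.19 and 8.27 in Control.

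Time was compared within each treatment. Since Control arrays carry no time, a change of untreated cells between 12 h and 24 h could not be taken off these differences. In Cis 24 h 8 of the 83 genes were higher and 1 lower than in Cis 12 h (7.21% and 3.42% of all genes, 10.6% in all), and quantile normalization gave 8 and 3. ST3GAL5 was higher by 1.08 ± 0.15 (SE, 2.11-fold), FUT8 by 0.99, MGAT4A by 0.97 and GALNT7 by 0.86, and ST6GALNAC3 was lower (−0.90). These 5 held without any single array. Arrays did not overlap for 14 members above and 17 below (19.1% and 17.9% of all genes). Without Cis 12 h A the comparison gave 5 higher and 2 lower. GALNT3 (0.65), GCNT2 (0.60), MGAT5 (0.59) and ST3GAL6 (0.64) then came to 0.51, 0.43, 0.42 and 0.51. GCNT2 also came to 0.57, 0.56 and 0.57 without Cis 12 h C, Cis 24 h A and Cis 24 h B, and MGAT5 to 0.53 without Cis 24 h A.

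In Cis/TM 24 h 8 genes were higher and 5 lower than in Cis/TM 12 h (5.67% and 8.07% of all genes, 13.7% in all), and arrays did not overlap for 20 above and 15 below (21.1% and 24.4%). The split was 9 and 3 after median centring, 10 and 3 after quantile normalization and 10 and 2 with the trend on level removed. FUT8 was higher by 1.17 ± 0.12 (SE, 2.25-fold), MGAT5 by 1.15, ST3GAL5 by 1.03, GALNT7 by 0.99, MGAT4A by 0.83 and GALNT13 by 0.72. MGAT1 (−1.02), B4GALT3 (−0.91) and ST6GALNAC3 (−0.72) were lower. These 9 held without any single array, although ST6GALNAC3 came to −0.58 with the trend on level removed. B4GALT4 (−0.60, −0.52 without Cis/TM 12 h A or C and −0.55 without Cis/TM 24 h B), C1GALT1 (0.69, at adjusted p-values from 0.0610 to 0.186 without Cis/TM 12 h A or C or Cis/TM 24 h B or C), ST3GAL6 (0.59, between 0.53 and 0.58 without Cis/TM 12 h B or C or Cis/TM 24 h A or C) and ST6GALNAC6 (−0.62, −0.54 without Cis/TM 12 h A and −0.56 without Cis/TM 24 h C) were the 4 that did not. In TM 24 h against TM 12 h, limma called 0 of the 83 genes (0.00543% of all genes) and 7 had an unadjusted p under 0.05, with the widest 95% confidence bounds at −0.73 and 1.02. Arrays did not overlap for 18 members above and 8 below (10.2% and 14.8% of all genes).

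**Figure D4:**
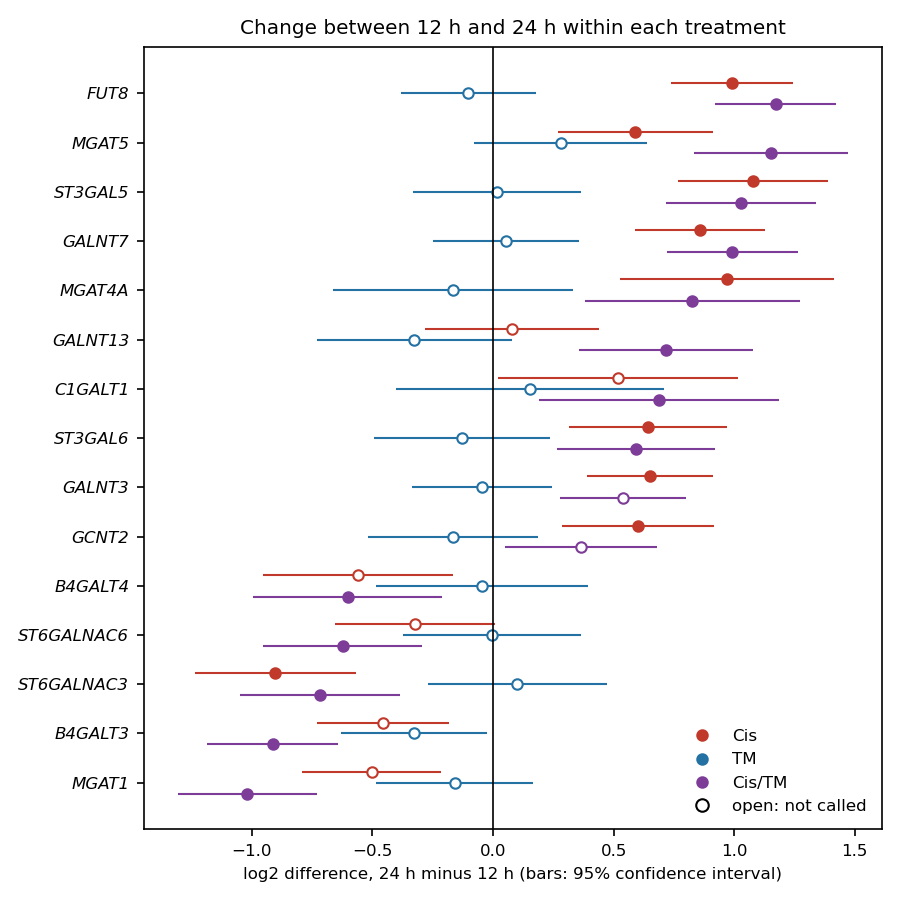
Log2 difference between 24 h and 12 h (horizontal axis, 24 h minus 12 h, with 95% confidence intervals) for the 15 genes called in such a comparison, in red for Cis, blue for TM and purple for Cis/TM; open points were not called. FUT8, ST3GAL5 and GALNT7 lie near 1 in Cis and Cis/TM and near 0 in TM, and ST6GALNAC3 lies below 0 in Cis and Cis/TM. A change of untreated cells with time is not taken off.

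Genes that act before, beside or after these enzymes were counted from 7 lists. In nucleotide sugar supply, 29 genes were tested, of which 9 rose and 3 fell after 12 h of cisplatin, and 5 rose and 2 fell after 24 h. These counts stand beside 14.8% of all genes rising and 10.8% falling at 12 h, and 11.5% and 4.90% at 24 h, so that 3 falls among 29 genes are near the share of all genes. PMM1, which makes mannose-1-phosphate, rose by 1.88 in Cis 12 h and 1.78 in Cis 24 h, and GFUS, which makes GDP-fucose, the sugar donor of FUT8, by 1.46 and 1.43. GFUS also rose with TM, by 1.45 at 12 h and 0.84 at 24 h. GMDS, which also serves GDP-fucose, was not called in Cis 12 h and fell by 0.86 in Cis 24 h, while it rose by 0.73 in TM 12 h. The sugar transporter gene SLC35A4 rose by 1.73 in Cis 12 h and 1.44 in TM 12 h. Among 29 genes of the oligosaccharyltransferase and its lipid-linked donor, 10 rose and 2 fell with cisplatin and 5 rose and 1 fell with TM at 12 h, where 8.99% and 3.11% of all genes did with TM. MPDU1 and DHDDS, which serve dolichol-linked sugars, rose by 1.84 and 1.27 in Cis 12 h and by 1.20 and 1.49 in TM 12 h. Among 10 N-glycan trimming genes, 3 rose and 4 fell in Cis 12 h. PRKCSH, the beta subunit of glucosidase II, rose in all 6 comparisons, from 0.93 in Cis/TM 24 h to 1.63 in Cis 24 h. MAN2A1, a Golgi mannosidase that acts on the product of MGAT1, fell by 1.27 in Cis 12 h and 0.72 in Cis 24 h. Its relative MAN2A2 went the other way and rose by 1.05 in Cis 12 h and 1.22 in Cis 24 h.

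Among 17 genes of the conserved oligomeric Golgi complex and Golgi pH, 2 rose and 5 fell in Cis 12 h, where 14.8% and 10.8% of all genes did. COG5 fell by 1.72 and COG4 rose by 1.07 there, both subunits of the complex that retrieves Golgi enzymes. Of 34 other Golgi glycosyltransferases, 4 rose and 4 fell in Cis 12 h. EXT1, which polymerizes heparan sulfate, fell by 1.21 in Cis 12 h and 0.91 in Cis 24 h, while CHPF2 and B3GAT3 rose by 0.93 and 1.32 in Cis 12 h. Of 4 sialidases NEU1, the lysosomal one, rose by 2.13 in Cis 12 h and 1.64 in Cis 24 h, and 0 fell. Of 19 glycan sulfotransferases 1 rose and 1 fell in Cis 12 h. CHST10 was the gene that rose (0.89), and CHST11, which sulfates chondroitin, was the gene that fell (−1.07). In Cis 24 h CHST11 fell by 1.14. The median log2 fold changes of these 7 lists in Cis 12 h ran from −0.10 in the Golgi complex to 0.35 in the oligosaccharyltransferase list, beside −0.01 over all genes tested. The fold changes named here held without any single array.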

How the data were processed

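MDA-MB-231 cells of 7 groups were profiled on 20 Affymetrix Human Gene ST arrays. The authors summarized the probe intensities with RMA and deposited log2 values, which were used without further transformation. The methods name the affy package in R for this step. Genome build, background per probe set and the version of that package were not given in the sources used here. Of 33297 transcript clusters, 19460 carried 1 symbol in the platform annotation and 1754 several. The cluster with the highest mean stood for each of 18417 genes. From 86 prefix matches, 2 pseudogenes and 1 antisense gene were removed by RefSeq annotation, leaving 83. GALNT4 shares its cluster with POC1B-GALNT4 and was not analysed here. B3GALT4 and ST6GALNAC2 each have clusters with identical group means. Whether the second clusters of ST6GALNAC3 and GALNT17 are independent measurements was not tested. No 2 arrays held identical values.

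Differences were tested in limma 3.58.1 (R 4.3.3) with 1 linear model of 7 groups (13 residual degrees of freedom), eBayes and Benjamini-Hochberg adjustment over all 18417 genes. A call needed an adjusted p under 0.05 together with a change of over 1.5-fold. The procedure was tested on simulated data. Array values are given, for some or all groups, for up to 5 called genes per role with the largest change against Control. They are also given for genes called in all comparisons with Control or, apart from B3GALT6, in a drug interaction. From each list at most 4 called genes are named, by p. Members and lists were chosen with earlier results of these data known. For RNA extraction the labels give Trizol, the methods RNeasy. The number of arrays limits the precision. Alternatives were median centring, quantile normalization, removal of the trend of fold change with level, leaving out the lowest 25% of genes, the mean of a gene's clusters, a variance prior with trend, a fit of only the groups compared, a replicate block, unadjusted p-values as the methods name, and leaving out each array.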

Additional observations from a re-analysis of the deposited data

Results flagged for a closer look

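These genes stand here because 24 h was called different from 12 h, or both drugs together from the sum of their separate log2 changes. The 24 h group of a treatment was compared directly with its 12 h group, so that no Control value enters the difference. All values are log2 differences from the limma fit. A change of untreated cells with time could not be taken off.

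In Cis, 24 h minus 12 h was 0.99 for FUT8, 0.65 for GALNT3, 0.86 for GALNT7, 0.60 for GCNT2, 0.97 for MGAT4A, 0.59 for MGAT5, 1.08 for ST3GAL5, 0.64 for ST3GAL6 and −0.90 for ST6GALNAC3. Leaving out Cis 12 h A ended the calls of GALNT3 (0.51), GCNT2 (0.43), MGAT5 (0.42) and ST3GAL6 (0.51). Cis 12 h C and Cis 24 h A and B for GCNT2 (0.57, 0.56 and 0.57) and Cis 24 h A for MGAT5 (0.53) also ended a call.

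In Cis/TM, 24 h minus 12 h was −0.91 for B4GALT3, −0.60 for B4GALT4, 0.69 for C1GALT1, 1.17 for FUT8, 0.72 for GALNT13, 0.99 for GALNT7, −1.02 for MGAT1, 0.83 for MGAT4A, 1.15 for MGAT5, 1.03 for ST3GAL5, 0.59 for ST3GAL6, −0.72 for ST6GALNAC3 and −0.62 for ST6GALNAC6. B4GALT4 was lost without Cis/TM 12 h A (−0.52), Cis/TM 12 h C (−0.52) or Cis/TM 24 h B (−0.55). C1GALT1 was lost without Cis/TM 12 h A (adjusted p = 0.159), Cis/TM 12 h C (0.0610), Cis/TM 24 h B (0.0785) or Cis/TM 24 h C (0.186). ST3GAL6 was lost without Cis/TM 12 h B (0.58), Cis/TM 12 h C (0.55), Cis/TM 24 h A (0.53) or Cis/TM 24 h C (0.53), and ST6GALNAC6 without Cis/TM 12 h A (−0.54) or Cis/TM 24 h C (−0.56).

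At 12 h the response to both drugs differed from the sum of the separate responses by 0.82 for B3GNT5, −1.04 for B4GALT3, 0.64 for GALNT1, 0.70 for GALNT17, 1.84 for ST6GALNAC3 and 1.58 for ST8SIA4. B3GNT5 was lost without Cis 12 h A (0.70), Cis/TM 12 h B (0.81), Control C (0.71) or TM 12 h B (0.71). GALNT1 was lost without Cis 12 h A (0.51), Cis/TM 12 h B (0.61), Control C (0.56) or either TM 12 h array (0.69 without A and 0.59 without B). GALNT17 was lost without any 1 of Cis 12 h B or C, Cis/TM 12 h B or C, Control A or C and TM 12 h A or B, at adjusted p-values from 0.0514 to 0.111.

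At 24 h this difference was −0.60 for B3GALT6, −0.69 for B3GNT3, 0.83 for B3GNT5, −1.17 for B4GALT3, 0.91 for C1GALT1C1, 0.67 for FUT8, 0.69 for GALNT1, 0.81 for GALNT5, −0.78 for MGAT1, 0.63 for ST6GAL1, 1.93 for ST6GALNAC3, −0.78 for ST6GALNAC5 and 1.69 for ST8SIA4. B3GALT6, which works on the linker of glycosaminoglycans, was lost without Cis 24 h B (−0.58), Cis/TM 24 h B (−0.55), Control B (−0.48) or TM 24 h A (−0.54). B3GNT3 was lost without Cis/TM 24 h C (adjusted p = 0.0502) or TM 24 h A (−0.57), and GALNT5 without Cis 24 h B (0.0528) or C (0.0518). ST6GAL1, at an adjusted p of 0.0499 with all arrays, was lost without any 1 of 15 arrays, lowest without Control B (0.39). ST6GALNAC5 was lost without Cis 24 h A, Cis 24 h B, Cis/TM 24 h C, Control C or TM 24 h C, at adjusted p-values from 0.0606 to 0.0837.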

How the results depend on the processing

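Of the 162 called values of single genes over the 17 comparisons, 0 changed direction under any alternative. All kept their call under unadjusted p-values and a variance prior with trend, as did the 148 that remained when the lowest 25% of genes were left out. Calls were lost for 2 values with the mean of a gene's clusters, 12 after median centring, 13 after quantile normalization, 22 with the trend on level removed and 8 when only the groups compared were fitted. Leaving out each array in turn ended the call of 58 values at least once. The count in TM 12 h against Control was 5, and 8 after quantile normalization, and ran from 4 to 9 over single arrays left out. That in Cis/TM 24 h against Cis 24 h was 2 and ran from 0 to 2. The drug interaction at 12 h was called for 6 genes, for 10 after quantile normalization and for 11 at an unadjusted p under 0.05, and for 3 to 9 over single arrays left out. The cause of these changes was not tested. Residuals of arrays with the same letter correlated at 0.008 in the median (57 pairs, −0.42 to 0.61). For arrays with other letters the median was 0.004 (114 pairs, −0.49 to 0.46). These medians do not exclude that some arrays of a letter were handled together. With a replicate block by letter, the counts were 21, 14, 5, 6, 17 and 7 in the comparisons with Control, as without it, and the drug interaction at 12 h was called for 5 genes. The block ended the calls of GALNT17 in that interaction (0.70, adjusted p = 0.0530) and of ST6GAL1 in the interaction at 24 h (adjusted p = 0.0651) and of no other single gene. RMA values hold no background per probe set, so genes near the lowest values cannot be told from unexpressed genes.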
